A study of Homo sapiens with 6 samples.

Results

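The 36 genes described here encode RNA polymerase I subunits and factors, proteins of small nucleolar ribonucleoproteins (snoRNPs), nucleolar proteins and pre-ribosome assembly factors, and they were picked by symbol from a table of 40111 genes. All 36 were found, and all 36 were among the 18548 genes with enough signal to be tested. They were measured by RNA-seq of polyadenylated RNA from BE(2)-M17, a human neuroblastoma line that the labels call neuroblast. In one group, of 3 libraries, a CRISPR-Cas9 vector had been used to knock down the long non-coding RNA LINC00894, and the other 3 libraries were of control cells with the genotype label NC, an abbreviation the labels do not expand. The guides, and whether the knockdown cells were a pool or 1 clone, are not stated in these sources, nor are passage and medium. The comparison asks which genes differ when LINC00894 is lowered. The labels do not say whether replicate libraries are separate cultures, so each p-value rests on a spread between libraries that may be technical only.

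Depth was 22898079, 28339105 and 28782977 assigned reads in knockdowns 1, 2 and 3, and 29276653, 48089716 and 43219009 in controls 1, 2 and 3. LINC00894 itself measured 1.10, 1.30 and 0.867 FPKM (assigned fragments scaled by gene length and by library total) in the knockdowns and 2.00, 2.24 and 2.21 FPKM in the controls. On the log2 scale this was a difference of -0.93 (SE 0.17, 3 libraries a group, limma adjusted p = 0.0406). The labelled cell type was not borne out by its defining markers: PHOX2A stayed at or under 0.0389 FPKM in every library, and 5 of the 9 neuroblast markers in the table were under 0.5 FPKM everywhere. GATA3 (4.12 to 5.58 FPKM), ISL1 (3.80 to 5.66) and HAND2 (1.26 to 1.71) were present. MYCN, the MYC-family oncogene of many neuroblastomas and a known activator of ribosome biogenesis genes, had 103 reads in all 6 libraries together (0.162 to 0.267 FPKM). MYC measured 17.9, 21.3 and 18.7 FPKM in the knockdowns and 16.0, 27.6 and 34.3 FPKM in controls 1, 2 and 3. The knockdowns thus lay above control 1 and below the other controls (log2 fold change -0.36, limma adjusted p = 0.378).

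Control 1 stood apart from the other 2 controls. The summed FPKM of 10 heat shock genes was 4070, 3310 and 3520 in knockdowns 1, 2 and 3, and 3350, 1540 and 1380 in controls 1, 2 and 3, so control 1 lay with the knockdowns. HSPA6, a strictly inducible HSP70 gene, measured 195, 155 and 161 FPKM in the knockdowns and 161, 0.830 and 1.18 FPKM in controls 1, 2 and 3. Transcripts used as markers of other cell types also differed between libraries, and which cells they came from was not tested. The sum of 10 red cell markers was 853, 374 and 440 FPKM in the knockdowns and 6.62, 4.15 and 66.5 FPKM in the controls, and that of 10 myeloid markers was 54.1, 167 and 196 FPKM in the knockdowns and 2.52, 1.28 and 283 FPKM in the controls. Of the 10 red cell markers, 2 stayed under 0.5 FPKM and 5 under 1 FPKM in every library, and 0 of the myeloid markers did. Most of each sum came from single genes. HBB measured 786, 329 and 400 FPKM in the knockdowns and 4.03, 2.22 and 61.8 FPKM in the controls. S100A9 measured 35.0, 117 and 133 FPKM in the knockdowns and 1.25, 0.726 and 202 FPKM in the controls. Lymphocyte markers summed to at most 4.93 FPKM, and Schwann cell and fibroblast markers to at most 6.77 FPKM, in any library. The part of these transcripts in the values below was not tested. In bulk RNA, fewer cells of a type and less RNA per cell cannot be told apart.

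Ribosome production starts in the nucleolus, where RNA polymerase I transcribes the ribosomal DNA into a long precursor RNA. UBTF and the initiation factor RRN3 bring the polymerase to the promoter, box C/D snoRNPs add methyl groups to the ribose of the precursor, and box H/ACA snoRNPs convert uridines to pseudouridine. Processing factors then fold, cut and assemble the precursor into the small and the large subunit. These genes are expressed in all growing cells, and MYC-family proteins are known to raise many of them through the E-box CACGTG. Ribosomal RNA itself was not measured, since the libraries hold polyadenylated RNA.

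Promoter sequence was available from RefSeq (GRCh38.p14, 250 bases before to 50 after the start) for 29 of the 36 genes. The E-box CACGTG, which reads the same on both strands, was found in 13 of them (44.8%), against 8.77% of 27305 genes. The ETS-type motif CCGGAAG, or CTTCCGG on the other strand, was found in 14 (48.3%), against 12.2% of those genes. A gene counted as holding a motif if any of its RefSeq windows did. The 27305 genes are all those with a RefSeq promoter, whether or not they were expressed here, so the shares are not of like sets. The motifs do not overlap each other in sequence and are matches of letters only, not sites shown to be bound. Windows of 120 bases, from 100 before the annotated start, are printed for 5 genes that were higher in the knockdown and for FBL, whose libraries lay on the other side. Capitals mark the E-box in UTP4, UTP20, RRP9 and FBL and the ETS-type motif in PPAN, which holds it 2 times, and RRN3. The UTP4 window also holds the ETS-type motif, left in lower case (cttccgg). They lie, in GRCh38.p14, with UTP4 at chr16:69132549-69132668 on the plus strand, UTP20 at chr12:101280005-101280124 on the plus strand, RRP9 at chr3:51941885-51942004 on the minus strand, PPAN at chr19:10106262-10106381 on the plus strand, RRN3 at chr16:15094253-15094372 on the minus strand and FBL at chr19:39846360-39846479 on the minus strand.
UTP4: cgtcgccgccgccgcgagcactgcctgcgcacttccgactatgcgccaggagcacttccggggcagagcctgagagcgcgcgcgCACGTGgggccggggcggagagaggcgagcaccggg
UTP20: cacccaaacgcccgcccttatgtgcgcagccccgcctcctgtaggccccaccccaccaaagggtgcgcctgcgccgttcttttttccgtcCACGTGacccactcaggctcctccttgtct
RRP9: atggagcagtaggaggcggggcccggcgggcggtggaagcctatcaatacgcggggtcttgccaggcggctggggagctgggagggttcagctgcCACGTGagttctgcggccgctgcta
PPAN: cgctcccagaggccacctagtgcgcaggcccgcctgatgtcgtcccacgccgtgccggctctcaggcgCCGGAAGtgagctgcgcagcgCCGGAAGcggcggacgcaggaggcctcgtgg
RRN3: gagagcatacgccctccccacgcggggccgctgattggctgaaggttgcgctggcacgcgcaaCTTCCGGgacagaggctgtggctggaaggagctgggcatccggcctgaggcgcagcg
FBL: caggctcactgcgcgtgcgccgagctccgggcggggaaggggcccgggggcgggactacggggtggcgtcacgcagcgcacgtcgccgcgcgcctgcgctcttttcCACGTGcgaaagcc

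The E-boxes began 16, 10 and 5 bases before the start in UTP4, UTP20 and RRP9, and 7 bases after it in FBL. In PES1, which rose too, the E-box began 14 bases after a RefSeq start, and its window is not printed. That window (chr22:30591891-30592010, minus strand) lies inside the gene, whose upstream end is annotated at 30607083. The UTP4 window also lies inside its gene, which begins at 69131291. Whether the most upstream start of either gene has an E-box is not given here. Holding an E-box went with no common direction of change. Of the 13 genes with it 4 rose, with a median log2 fold change of 0.12 and a range of -0.24 to 0.70, and of the 16 without it 3 rose, with a median of 0.17. Of the 14 genes with the ETS-type motif 4 rose (median 0.26), and of the 15 without it 3 rose (median 0.11). UBTF rose and held neither motif in its window, which says only that these letters are not there.

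In the knockdown, 7 of the 36 genes rose and 0 fell. UTP20 was 1.63-fold higher, RRN3 1.56-fold, PES1 1.48-fold, UTP4 1.45-fold, RRP9 1.42-fold, UBTF 1.33-fold and PPAN, at a low level, 2.23-fold. The test was limma on log2(FPKM + 0.1), with a trend of variance on mean, over all 18548 genes, two-sided, with Benjamini-Hochberg adjustment and a threshold of 0.05. These 7 were 19.4% of the genes, against 4.14% of all genes tested that rose (768), while 2.06% of all genes fell (382). PPAN, which is counted here and in later shares, had enough signal to be tested only with the knockdowns counted. At an unadjusted p under 0.05 the genes numbered 13 higher and 4 lower, together 47.2% against 32.6% of all genes. With median-of-ratios scaling of the libraries that excess was gone, at 33.3% against 32.8% of all genes. Limma-voom on the recovered reads also called 0 lower.

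The typical gene moved little. The median log2 fold change over the 36 was 0.14, against 0.07 over all genes tested. The estimate was above 0 for 28 and below 0 for 8, although 8 of the 28 (GAR1, NOP10, NOP14, NOP16, NPM1, POLR1A, RRS1 and WDR75) were at or under 0 with median-of-ratios scaling. That scaling shifted the median of all genes by -0.12, and the genes' median then was 0.02, again 0.07 above that of all genes. With it 3 of the 7 still passed limma (UTP20, PES1 and PPAN, 8.33% of the 36), against 1.82% of all genes higher and 2.67% lower (338 and 495). Of these, PPAN had enough signal to be tested only with the knockdowns counted, so that share leans on it. The limma adjusted p of the other 4 lay between 0.0514 and 0.069.

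**Figure D1:**
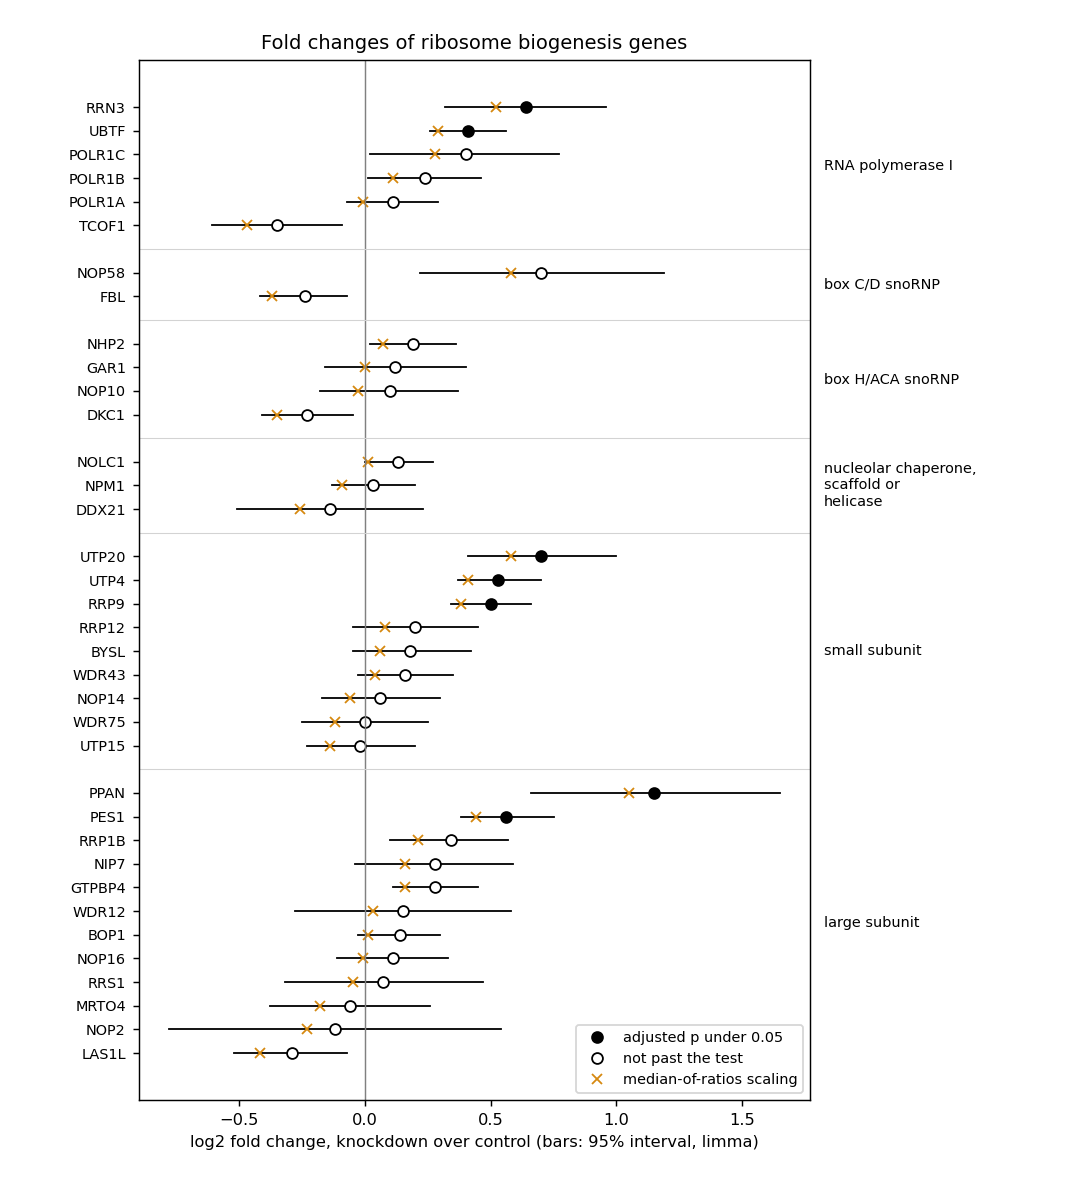
Log2 fold change of each of the 36 genes, knockdown over control (horizontal axis), grouped by role; circles and bars are the limma estimate and its 95% interval with scaling by total reads, filled where the adjusted p was under 0.05, and crosses are the estimate with median-of-ratios scaling. The 7 filled circles lie between 0.41 and 1.15, TCOF1, FBL, DKC1 and LAS1L have intervals below 0, and the crosses lie to the left of the circles.

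The groups did not overlap, with every knockdown library above every control, in 17 of the 36 genes (47.2%), against 23.9% of all genes tested. Every knockdown lay below every control in 4 (11.1%), against 14.3% of all genes. These 4 were TCOF1, FBL, DKC1 and LAS1L. With median-of-ratios scaling the counts were 9 above and 4 below, against 16.9% and 21.2% of all genes.

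**Figure D2:**
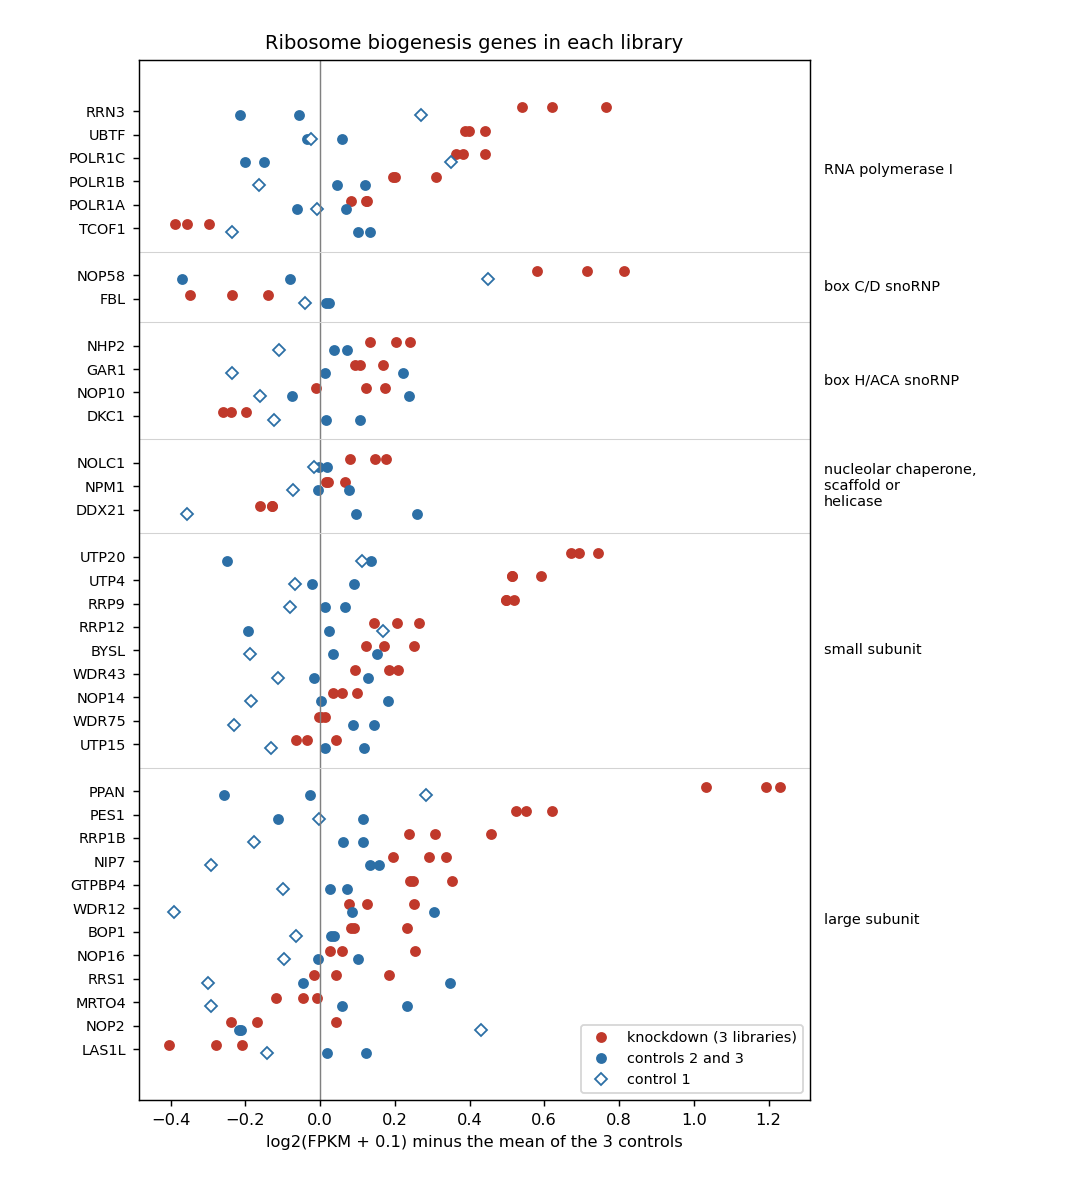
Level of each of the 36 genes in each library as log2(FPKM + 0.1) minus the mean of the 3 controls (horizontal axis), with the 3 knockdowns (red) drawn above the 3 controls (blue, control 1 as an open diamond) in each row and genes grouped by role. Control 1 is the lowest control in 26 genes, and PPAN, UTP20, PES1, UTP4 and RRP9 show knockdowns well to the right of every control.

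Among the 6 genes of the RNA polymerase I machinery, 2 rose (RRN3 and UBTF), 0 fell, and the median log2 fold change was 0.32. RRN3 (ENSG00000085721; chromosome 16, 15060022 to 15094317, minus strand, GRCh38), the initiation factor that makes the polymerase competent to start, measured 28.5, 24.4 and 25.8 FPKM in the knockdowns and 20.2, 14.4 and 16.1 FPKM in controls 1, 2 and 3. Every knockdown lay above the highest control, which was control 1. The log2 difference came to 0.64 (SE 0.13, 3 libraries a group, limma adjusted p = 0.0466). Reads of RRN3 can be shared with near-identical pseudogene copies such as RRN3P1, which measured 5.56 to 6.94 FPKM in the knockdowns and 3.55 to 4.68 FPKM in the controls (log2 fold change 0.60, limma adjusted p = 0.0565), so the split between them is uncertain.

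UBTF (ENSG00000108312; chromosome 17, 44205033 to 44221626, minus strand), the architectural factor that holds active ribosomal DNA open, measured 15.6, 16.2 and 15.7 FPKM in the knockdowns and 11.7, 11.6 and 12.4 FPKM in the controls. The spread within each group was small and control 1 lay between the other controls. The log2 fold change was 0.41 (SE 0.06, limma adjusted p = 0.0353). TCOF1 (ENSG00000070814; chromosome 5, 150357629 to 150400308, plus strand), the treacle scaffold that binds UBTF and the polymerase, measured 21.4, 22.8 and 21.9 FPKM in the knockdowns and 23.8, 30.1 and 30.8 FPKM in the controls. The nearest control to the knockdowns was control 1. With a log2 fold change of -0.35 (95% interval -0.61 to -0.09) TCOF1 did not pass limma (adjusted p = 0.0885). None of the subunits passed. POLR1A, the largest, averaged 5.43 ± 0.091 FPKM in the knockdowns and 5.03 ± 0.241 in the controls, POLR1B, the second largest, 9.26 ± 0.431 FPKM in the knockdowns and 7.87 ± 0.796 in the controls, and POLR1C, which RNA polymerase III also contains, 6.11 ± 0.171 FPKM in the knockdowns and 4.69 ± 1.06 in the controls (SD, n = 3 each). Their limma adjusted p-values were 0.354, 0.144 and 0.137.

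Neither of the 2 box C/D snoRNP proteins passed the test, and their values lay on opposite sides. NOP58 (ENSG00000055044), a core protein of the particle, measured 105, 89.3 and 97.9 FPKM in the knockdowns and 81.5, 46.2 and 56.4 FPKM in controls 1, 2 and 3. Control 1 was the control nearest to the knockdowns, and the log2 fold change was 0.70 (95% interval 0.22 to 1.19, limma adjusted p = 0.0765). FBL (ENSG00000105202; chromosome 19, 39834458 to 39846414, minus strand), the methyltransferase fibrillarin, measured 122, 132 and 141 FPKM in the knockdowns and 151, 157 and 158 FPKM in the controls. All 3 knockdowns lay below all 3 controls, with a log2 fold change of -0.24 (95% interval -0.42 to -0.07, limma adjusted p = 0.0829).

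None of the 4 box H/ACA snoRNP proteins passed limma, and the estimates ran from -0.23 to 0.19. DKC1 (ENSG00000130826; chromosome X, 154762742 to 154777689, plus strand), the pseudouridine synthase dyskerin, measured 47.2, 49.3 and 47.9 FPKM in the knockdowns and 51.9, 57.2 and 60.9 FPKM in the controls. The groups did not overlap, control 1 was the lowest control, and the log2 fold change was -0.23 (95% interval -0.41 to -0.05, adjusted p = 0.093). NHP2, a core RNA-binding protein of the same particle, measured 92.4, 96.9 and 99.4 FPKM in the knockdowns and 78.0, 88.4 and 86.4 FPKM in the controls. Here every knockdown lay above every control, with a log2 fold change of 0.19 (95% interval 0.02 to 0.36, limma adjusted p = 0.123). GAR1 and NOP10, the other core proteins, averaged 48.0 ± 1.31 and 106 ± 7.03 FPKM in the knockdowns, against 44.5 ± 7.0 and 99.8 ± 14.8 FPKM in the controls (SD, n = 3 each), and both overlapped between groups.

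The 3 abundant nucleolar proteins with chaperone, scaffold or helicase roles did not pass limma either. NPM1, the nucleolar chaperone nucleophosmin and the most abundant gene of the 36, averaged 257 ± 4.76 FPKM in the knockdowns and 251 ± 13.3 FPKM in the controls (SD, n = 3 each), a log2 fold change of 0.03 with a 95% interval of -0.13 to 0.20. Its pseudogene copy NPM1P27 alone was credited with 85.3 to 93.4 FPKM, so the level of NPM1 depends on how the authors' counting split shared reads. NOLC1, a scaffold that carries snoRNPs, measured 99.6, 97.6 and 93.2 FPKM in the knockdowns and 87.2, 89.2 and 88.0 FPKM in the controls. Its groups did not overlap, and the log2 fold change was 0.13 (95% interval 0.00 to 0.27, limma adjusted p = 0.154). DDX21, an RNA helicase, measured 130, 130 and 127 FPKM in the knockdowns and 111, 152 and 170 FPKM in controls 1, 2 and 3. The knockdowns lay between control 1 and the other controls (log2 fold change -0.14, limma adjusted p = 0.554).

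Of the 9 small-subunit factors 3 rose, UTP20, UTP4 and RRP9, 0 fell, and the median log2 fold change was 0.18. UTP20 (ENSG00000120800; chromosome 12, 101280109 to 101386616, plus strand), a very large protein of the small-subunit processome, measured 6.34, 6.03 and 6.12 FPKM in the knockdowns and 4.06, 3.14 and 4.13 FPKM in the controls. The knockdowns lay close together and above every control. The log2 fold change came to 0.70 (SE 0.12, 3 libraries a group, limma adjusted p = 0.0379).

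UTP4 (ENSG00000141076; chromosome 16, 69131291 to 69231130, plus strand), a subunit of the t-UTP (UTP-A) complex that binds the 5′ end of the precursor, measured 19.0, 18.0 and 18.0 FPKM in the knockdowns and 12, 12.4 and 13.4 FPKM in the controls. No knockdown came near the highest control, and the log2 fold change was 0.53 (SE 0.07, limma adjusted p = 0.0335). RRP9 (ENSG00000114767; chromosome 3, 51933430 to 51941941, minus strand), the U3 snoRNP-specific protein, measured 14.8, 14.6 and 14.6 FPKM in the knockdowns and 9.75, 10.8 and 10.4 FPKM in the controls. Control 1 was the lowest library, and the log2 fold change was 0.50 (SE 0.07, limma adjusted p = 0.0335).

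None of the other t-UTP subunits measured here passed limma. UTP15 measured 5.99, 5.87 and 6.33 FPKM in the knockdowns and 5.60, 6.19 and 6.67 FPKM in the controls, which overlapped (log2 fold change -0.02, 95% interval -0.23 to 0.20). WDR43 averaged 57.7 ± 2.42 FPKM in the knockdowns and 51.7 ± 4.37 FPKM in the controls, and WDR75 31.3 ± 0.135 FPKM in the knockdowns and 31.5 ± 4.25 FPKM in the controls (SD, n = 3 each). The remaining 3, the processome component NOP14, the export and maturation factor RRP12 and the late maturation factor BYSL, had log2 fold changes of 0.06, 0.20 and 0.18 with overlapping groups and limma adjusted p-values of 0.679, 0.234 and 0.239.

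Among the 12 large-subunit factors 2 rose, PES1 and PPAN, 0 fell, and the median log2 fold change was 0.14. PES1 (ENSG00000100029; chromosome 22, 30576625 to 30607083, minus strand), a subunit of the PeBoW complex needed for processing of the large-subunit RNAs, measured 31.3, 29.8 and 29.3 FPKM in the knockdowns and 20.3, 18.8 and 22.0 FPKM in the controls. The groups were well apart and control 1 lay in the middle of the controls. For PES1 the log2 fold change was 0.56 (SE 0.08, 3 libraries a group, limma adjusted p = 0.0335). Its PeBoW partners did not pass. BOP1 averaged 19.1 ± 1.10 FPKM in the knockdowns and 17.4 ± 0.664 FPKM in the controls, and WDR12 9.71 ± 0.632 FPKM in the knockdowns and 8.91 ± 2.12 FPKM in the controls (SD, n = 3 each), with log2 fold changes of 0.14 and 0.15.

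PPAN (ENSG00000130810; chromosome 19, 10106289 to 10111634, plus strand), an assembly factor of the large subunit, measured 1.51, 1.34 and 1.55 FPKM in the knockdowns and 0.757, 0.590 and 0.489 FPKM in the controls. All knockdowns lay above all controls, and control 3 was under the 0.5 FPKM filter, so PPAN passed that filter only with the knockdowns counted. The log2 fold change was 1.15 (SE 0.21, limma adjusted p = 0.0397). It rests on 546 reads in all 6 libraries, and it was 0.62 with a pseudocount of 1 FPKM. In GENCODE 29, 1544 of the 2583 exon bases of PPAN are shared with the same-strand genes P2RY11 and PPAN-P2RY11, a readthrough gene with no row in the table. P2RY11 measured 1.94, 1.86 and 2.08 FPKM in the knockdowns and 1.71, 1.0 and 0.897 FPKM in the controls, so the level of PPAN and its change are uncertain. The same holds for NOP2, an RNA methyltransferase of the large subunit, which had the lowest mean of the 36 (0.667 FPKM, 617 reads) and shares 2550 of 4687 exon bases with the same-strand gene AC006064.6. NOP2 averaged 0.627 ± 0.0748 FPKM in the knockdowns and 0.707 ± 0.221 FPKM in the controls (SD, n = 3 each), with overlapping groups.

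LAS1L (ENSG00000001497; chromosome X, 65512582 to 65534775, minus strand), the endonuclease that cuts the second internal spacer of the precursor, measured 9.07, 9.91 and 10.4 FPKM in the knockdowns and 10.9, 12.2 and 13.1 FPKM in the controls. All knockdowns lay below all controls, with control 1 the nearest, and the log2 fold change was -0.29 (95% interval -0.52 to -0.07, limma adjusted p = 0.0938). The GTPase GTPBP4 averaged 34.4 ± 1.48 FPKM in the knockdowns and 28.3 ± 1.68 FPKM in the controls, and the nucleolar protein RRP1B 36.4 ± 2.91 FPKM in the knockdowns and 28.9 ± 2.97 FPKM in the controls (SD, n = 3 each). Their groups did not overlap, with limma adjusted p-values of 0.06 and 0.0828, and limma-voom called GTPBP4 (adjusted p = 0.0391). NIP7, NOP16, RRS1 and MRTO4, all assembly factors of the large subunit, had log2 fold changes of 0.28, 0.11, 0.07 and -0.06, and none passed.

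The libraries mark no strand, so reads cannot be told apart where exons of 2 strands overlap. In GENCODE 29 this touches 246 exon bases of PES1 (with TCN2), 253 of UBTF, 70 of UTP4 (with CHTF8) and 1251 of GTPBP4, and 0 of UTP20, RRP9 and RRN3. It also touches 414 of 1510 exon bases of NHP2 (with RMND5B), 1009 of 5550 of POLR1C and 957 of 4749 of NIP7 (with COG8). In NOP14 it touches 605 of 3538, in NOP16 571 of 2862, and in some other genes shorter stretches. The values of NHP2, and the ratio of DKC1 to it below, may thus hold reads of RMND5B.

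**Figure D3:**
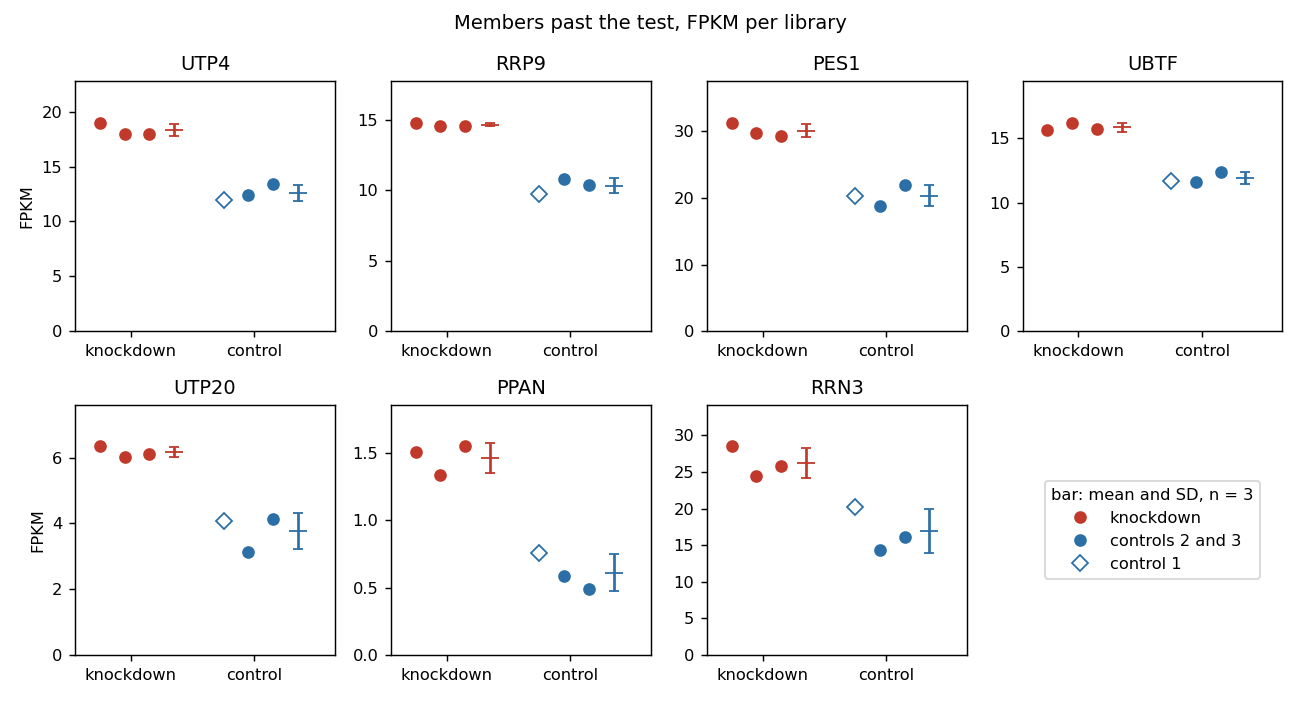
FPKM in each library (vertical axis, from 0) of the 7 genes past the test, with the 3 knockdowns left of the 3 controls, control 1 as an open diamond, and a bar for the mean and SD (n = 3). In UTP4 and RRP9 control 1 is the lowest control, in PPAN and RRN3 the highest, and in every panel all 3 knockdowns lie above it.

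Genes whose proteins work in one complex can be set against each other by the ratio of their FPKM within a library, which no scaling of libraries can alter. The pairs were chosen after the values were seen, so they are given as a description. NOP58 over FBL was 0.866, 0.677 and 0.696 in the knockdowns and 0.539, 0.294 and 0.357 in the controls, without overlap. DKC1 over NHP2 was 0.511, 0.509 and 0.482 in the knockdowns and 0.666, 0.647 and 0.705 in the controls, lower in every knockdown. UTP4 over UTP15 was 3.17, 3.06 and 2.85 in the knockdowns and 2.15, 2.01 and 2.01 in the controls. In the last pair control 1 lay close to the other controls.

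PES1 over BOP1 averaged 1.58 ± 0.131 in the knockdowns and 1.18 ± 0.106 in the controls (SD, n = 3 each), without overlap. PES1 over WDR12 did overlap, at 3.40, 2.86 and 3.08 in the knockdowns and 3.07, 2.03 and 2.03 in the controls. UBTF over TCOF1 was 0.729, 0.711 and 0.719 in the knockdowns and 0.492, 0.383 and 0.401 in the controls. RRN3 over POLR1A averaged 4.83 ± 0.366 in the knockdowns and 3.36 ± 0.588 in the controls, and UBTF over POLR1A 2.91 ± 0.0645 in the knockdowns and 2.36 ± 0.0359 in the controls. Relative to the polymerase's largest subunit, both initiation factors were higher in every knockdown library than in any control.

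**Figure D4:**
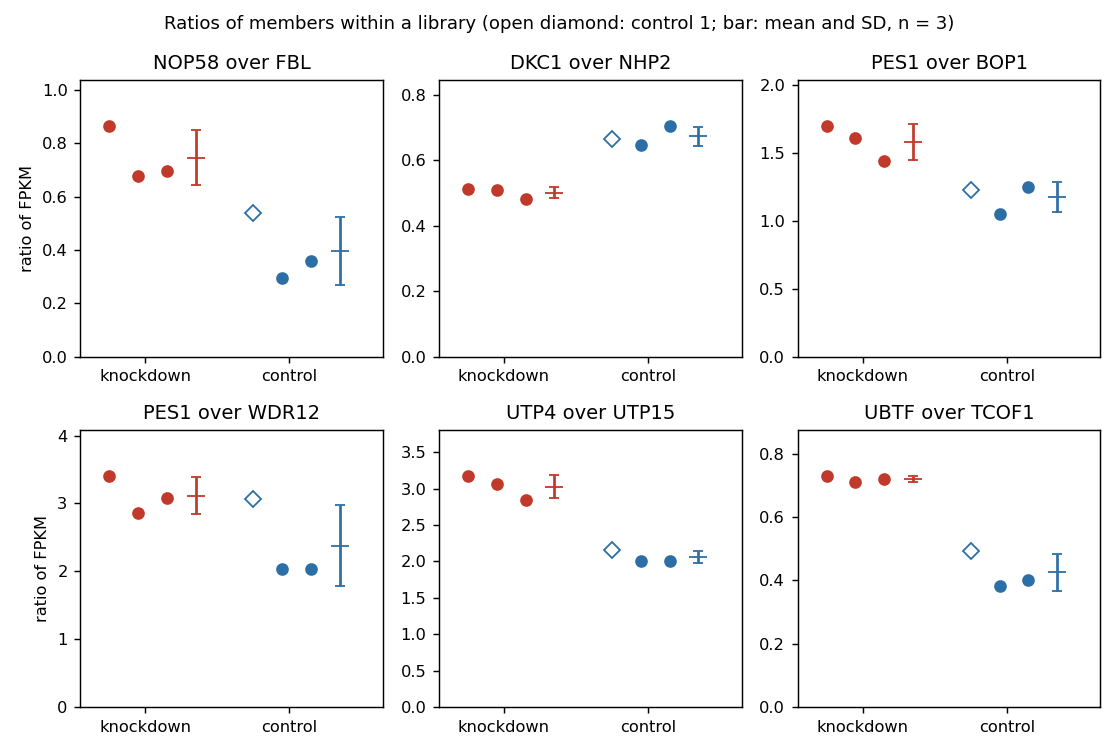
Ratio of the FPKM of 2 genes within a library (vertical axis, from 0) for 6 pairs, with the 3 knockdowns left of the 3 controls, control 1 as an open diamond, and a bar for the mean and SD (n = 3). Of the 6 panels, DKC1 over NHP2 alone is lower in every knockdown, and PES1 over WDR12 alone overlaps.

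Control 1 was the lowest control in 26 of the 36 genes (72.2%), against 35.6% of all genes tested, and the highest in 6 (16.7%), against 49.8% of all genes. The summed FPKM of the 36 was 1494, 1470 and 1499 in the knockdowns and 1309, 1413 and 1488 in the controls. The median difference of the knockdown mean from control 1 was 0.26 on the log2 scale (0.02 over all genes), and from the mean of controls 2 and 3 it was 0.10 (0.09 over all genes). So the genes' median stood above that of all genes against control 1 and next to it against the other controls.

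Without control 1 all 7 genes kept their call, with limma adjusted p-values between 0.00147 and 0.00489, and 12 of the 36 were higher (33.3%) and 5 lower (13.9%; DDX21, DKC1, FBL, LAS1L and TCOF1), shares near the 28.8% and 16.2% of all genes. Leaving out any other single library ended every call, in these genes and in all others, with adjusted p-values of the 7 between 0.0774 and 0.182, while their log2 fold changes stayed between 0.39 and 1.30 over all 6 omissions. In those 5 fits 10 to 19 of the 36 (27.8% to 52.8%) had an unadjusted p under 0.05, against 20% to 24.5% of all genes. With limma-voom on the recovered reads 9 of the 36 rose, the 7 with NOP58 and GTPBP4, and 0 fell, against 12.4% and 4.5% of all genes.

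In the authors' deposited table, whose test is not stated in these sources, 6 of the 36 were higher at an adjusted p under 0.05 (UTP20, PPAN, RRN3, PES1, UTP4 and NOP58) and 4 lower (TCOF1, FBL, LAS1L and DKC1), against 5.77% and 8.92% of all genes tested here. The size factors recovered from the deposited group means (0.7481 to 1.3995) equalled the median-of-ratios factors used above in all 6 libraries. The deposited values are thus not a separate scaling, and the main limma fit here scales otherwise. The authors' deposited table gave log2 fold changes of 0.59 for UTP20 and 1.16 for PPAN, and of -0.49 for TCOF1 and -0.37 for FBL. In the authors' deposited table UBTF (adjusted p = 0.0877) and RRP9 (adjusted p = 0.0891) did not pass.

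Beyond the 36, 136 other ribosome biogenesis genes were read from the same limma fit, and 22 rose (16.2%) and 0 fell, with a median log2 fold change of 0.15, against 4.14% higher, 2.06% lower and a median of 0.07 over all genes tested. With median-of-ratios scaling 10 of the 136 were higher (7.35%) and 1 lower (0.735%), against 1.82% and 2.67% of all genes. This list too was chosen with earlier results of these data known. The median log2 difference of its knockdown mean from control 1 was 0.19 (0.02 over all genes). From the mean of controls 2 and 3 it was 0.11 (0.09 over all genes), so these genes too stood out mainly against control 1. RPF1, an assembly factor of the large subunit, averaged 50.5 ± 2.24 FPKM in the knockdowns and 35.6 ± 0.786 FPKM in the controls (SD, n = 3 each; log2 fold change 0.50, limma adjusted p = 0.0335). SDAD1, known in yeast as a factor of large-subunit assembly and export, averaged 28.6 ± 1.31 FPKM in the knockdowns and 20.4 ± 1.27 FPKM in the controls (log2 fold change 0.49, limma adjusted p = 0.0353). By role, 10 of 45 small-subunit genes, 9 of 51 large-subunit genes, 2 of 10 snoRNP genes and 1 of 15 RNA polymerase I genes rose. The RNA polymerase I gene that rose encodes a subunit shared with RNA polymerases II and III, so it is not particular to RNA polymerase I. None of the 15 genes for trimming of the ribosomal RNA ends passed limma, and their median was -0.10.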

How the data were processed

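Poly(A) RNA-seq of 6 libraries was used, grouped by sample title. Per the labels' protocols, libraries were made with random primers and no strand marking, and the submitters' processing notes name HISAT2. The counter, build, annotation and filters are not stated in these sources. The authors deposited FPKM per library, judged from the values, which are whole multiples of 1 read. Per the file headers, that deposited table also holds a mean size-scaled read signal per group, a log2 fold change, a p-value and its adjusted form.

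Whole reads were recovered from FPKM ratios and the deposited group means: 100% of values came out whole within 0.1 read. The 18548 genes that reached 0.5 FPKM in 3 or more of 6 libraries were tested with limma 3.58.1 (R 4.3.3, mean-variance trend) on log2(FPKM + 0.1), which understates changes of low genes. Group was the only term, p-values were two-sided, and Benjamini-Hochberg adjustment ran over all genes tested. The test was checked on simulated counts in which no library stood apart, so that check does not cover the position of control 1. For a 1 kb gene, 1 read gave 0.0208 to 0.0437 FPKM; intervals cover the spread between libraries. Coordinates are from GENCODE 29 (GRCh38). Lengths implied by the deposited FPKM were longer for some genes, such as 12555 against 5589 exon bases for LAS1L. For POLR1A they were 19694 against 13519, so exon overlaps in the authors' gene models may differ from those given here. Python 3.11.15 with pandas 2.3.3 made the summaries. All 36 genes are named; values in every library are given for those past the test and for the largest log2 fold change in each direction per role, and at most 2 other pathway genes per direction are named, by smallest p. The members and lists were chosen with earlier results of these data known. Alternatives were other pseudocounts, filters and scaling, limma-voom, a replicate block and each library left out.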

Additional observations from a re-analysis of the deposited data

How the results depend on the processing

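The count of 7 genes higher and 0 lower was the same with a pseudocount of 1 FPKM and a filter at 1 FPKM, which PPAN passed only through the knockdowns, and it was 9 and 0 with limma-voom on the recovered reads. It was 0 higher with no filter on low values (40111 genes tested), 3 with median-of-ratios size factors, and 0 with the replicate block, which left 0 calls among all genes in limma (5990 at an unadjusted p under 0.05). Same-numbered libraries shared only a number (correlations of their deviations 0.149, 0.078 and 0.037; knockdown 2 correlated best with control 3, at 0.099), so the block has no known meaning here. Leaving out 1 library gave 0 to 12 higher and 0 to 5 lower, all calls coming from the omission of control 1; the cause was not tested. Chosen after seeing the data, limma-voom without control 1 gave 12 higher and 6 lower (33.3% and 16.7%, against 31.9% and 18.9% of all genes), and size factors without control 1 gave 9 and 9 (25.0% each, against 19.6% and 26.4%), shares near those of all genes. Of the 136 other genes, 0 were higher with no filter and with the block. Size factors gave 10 higher and 1 lower (7.35% and 0.735%, against 1.82% and 2.67% of all genes). Limma-voom gave 34 and 4 (25.0% and 2.94%, against 12.4% and 4.5% of all genes). With 1 library left out the 136 gave 0 to 55 higher and 0 to 21 lower. All those calls came from the omission of control 1 (40.4% and 15.4%, against 28.8% and 16.2% of all genes). Limma-voom without control 1 gave 61 and 23 (44.9% and 16.9%, against 31.9% and 18.9% of all genes). Size factors without control 1 gave 30 and 38 (22.1% and 27.9%, against the same 19.6% and 26.4%). The median log2 fold change of the 36 was 0.02 with size factors and -0.06 with size factors without control 1. Genes without overlap numbered 9 above with size factors, and 10 above and 11 below with size factors without control 1 (29.3% and 38.8% of all genes). With 1 library left out they numbered 17 to 24 above (25.5% to 40.3% of all genes) and 4 to 7 below (15.9% to 26.1%). No single gene of the 7 changed sign. Of those that did not pass, the size factors gave at or under 0 for POLR1A (-0.01), GAR1 (0.00), NOP10 (-0.03), NPM1 (-0.09), WDR75 (-0.12), NOP14 (-0.06), NOP16 (-0.01) and RRS1 (-0.05), and limma-voom gave 0.00 for WDR75. With 1 library left out, log2 fold changes spanned 0 for NPM1 (0.00 to 0.07), UTP15 (-0.08 to 0.04), WDR75 (-0.11 to 0.08), NOP14 (-0.03 to 0.15), WDR12 (-0.05 to 0.30), NOP2 (-0.23 to 0.09), RRS1 (-0.08 to 0.25) and MRTO4 (-0.20 to 0.06). Depth limits PPAN and NOP2 most, at as few as 61 reads in a library.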
